A study of Mus musculus with 7 samples.

Results

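The genes described here are 36 genes of skeletal muscle contraction and differentiation, out of 25461 genes in the table of expression values. They were chosen by symbol from a known muscle programme, with the difference between SLMAP3 KO and WT embryos already in view. Their values in the 2 genotypes, and the counts that the fit over all genes gives for them, are therefore a description and carry no weight as a test. By textbook knowledge of where each gene is used, 22 of them belong mainly to skeletal muscle, 12 are shared with the embryonic heart, and Tpm2 and Chrnb1 are expressed more broadly. These 3 classes are called skeletal, heart-shared and broad below. Tpm1 is counted as heart-shared, although it is also made in smooth muscle and non-muscle cells.

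SLMAP3 is the long isoform of the sarcolemma membrane-associated protein, a tail-anchored membrane protein. RNA was measured in 7 whole embryos, each taken singly at E11.5 from the strain B6C3F1, 3 labelled SLMAP3 knockout and 4 labelled wild type. The KO line came from mice with a loxP-flanked Slmap exon that were crossed to CMV-cre mice, after which the deleted allele was bred without cre. The deletion was therefore present in every tissue, and it was designed to remove SLMAP3 and not the shorter isoforms. The tails of all 7 embryos had been taken for genotyping, and no embryos were pooled. Values are FPKM, that is, fragments scaled to transcript length and to sequencing depth.

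The first differentiated skeletal muscle of the mouse embryo is the myotome of the somites, which is well formed at this stage, while limb muscle is only beginning to differentiate. Committed cells carry Myf5 and Myod1, leave the cell cycle, switch on Myog and fuse into multinucleated fibres that assemble sarcomeres. In a sarcomere, myosin heads pull on actin filaments, and the troponin and tropomyosin complex on the actin filament makes this depend on calcium. The embryonic heart builds its sarcomeres earlier and from many of the same genes.

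The upstream sequences of a few members are shown first, because several of them hold the E-box, the letters to which the myogenic factors Myod1 and Myog bind. RefSeq windows (GRCm38.p6) of 250 bases before the annotated start were found for 29 of the 36 members. Many of these windows overlap annotated exons, with all 250 bases in Cdh15, Unc45b and the second Tnnt2 window, and they were counted all the same. CANNTG, the general E-box, was present in 25 of the 29 members (86.2%) and in 66.2% of all 32851 promoter windows used. Windows of a chromosome that holds no member were left out of this total. A member was counted if any of its windows matched, with 31 windows for the 29, while the share of all is per window. CAGCTG, one form of CANNTG, was present in 13 of the 29 (44.8%) and in 13% of all windows. It was found in 9 of the 15 skeletal members with a window and in 3 of the 12 heart-shared ones. The CArG box, bound by serum response factor, was found in Acta1, Actc1 and Myom1 and in 1.47% of all windows. The MEF2 site was found in Ttn and Klhl41 and in 0.508% of all windows. These patterns read the same on both strands, and TATAAA, found in 3 members and 7.59% of all windows, was searched on the strand of the gene only.

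In the sequences below, written 5′ to 3′ on the strand of the gene, capitals mark every match to CANNTG, the CArG box, the MEF2 site and TATAAA. They were taken from members of different roles whose window overlaps no annotated exon: a myosin, an actin, a receptor subunit and a sarcomere assembly factor of the skeletal class, and the heart-shared troponin T. Myh3 lies at chr11:67078050-67078299 (+ strand), Acta1 at chr8:123894776-123895025 (- strand), Chrna1 at chr2:73580339-73580588 (- strand), Klhl41 at chr2:69669870-69670119 (+ strand) and Tnnt2 at chr1:135836084-135836333 (+ strand).
Myh3: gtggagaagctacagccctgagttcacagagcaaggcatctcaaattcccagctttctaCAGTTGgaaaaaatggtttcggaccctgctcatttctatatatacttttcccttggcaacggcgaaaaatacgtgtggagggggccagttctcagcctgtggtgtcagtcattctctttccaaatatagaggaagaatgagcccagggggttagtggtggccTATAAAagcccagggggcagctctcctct
Acta1: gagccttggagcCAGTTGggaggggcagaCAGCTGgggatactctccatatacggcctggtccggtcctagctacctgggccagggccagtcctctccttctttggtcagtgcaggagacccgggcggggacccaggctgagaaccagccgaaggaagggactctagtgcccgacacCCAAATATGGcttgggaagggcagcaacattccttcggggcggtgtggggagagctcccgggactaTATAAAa
Chrna1: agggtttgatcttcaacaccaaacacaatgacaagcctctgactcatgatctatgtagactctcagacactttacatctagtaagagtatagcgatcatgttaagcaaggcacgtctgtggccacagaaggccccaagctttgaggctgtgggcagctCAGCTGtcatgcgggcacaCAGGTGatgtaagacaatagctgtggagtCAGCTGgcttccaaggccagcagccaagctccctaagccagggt
Klhl41: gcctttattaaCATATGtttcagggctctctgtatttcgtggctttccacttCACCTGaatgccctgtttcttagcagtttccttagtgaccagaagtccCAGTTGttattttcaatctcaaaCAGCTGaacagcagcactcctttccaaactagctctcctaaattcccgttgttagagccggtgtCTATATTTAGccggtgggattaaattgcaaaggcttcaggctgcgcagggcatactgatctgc
Tnnt2: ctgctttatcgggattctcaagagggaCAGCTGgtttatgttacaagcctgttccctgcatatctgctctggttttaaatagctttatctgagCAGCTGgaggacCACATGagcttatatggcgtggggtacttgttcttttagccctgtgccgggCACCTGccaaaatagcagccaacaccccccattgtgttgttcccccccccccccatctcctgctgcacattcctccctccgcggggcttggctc

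The Myh3 window held 1 E-box, CAGTTG, and a TATAAA 29 to 24 bases before the start. Acta1 held 2 E-boxes, 1 of them CAGCTG, and the CArG box 73 to 64 bases before the start. Chrna1 held 3 E-boxes within 92 bases of the start, of which 2 were CAGCTG. Klhl41 held 4 E-boxes and the MEF2 site 63 to 54 bases before the start. Tnnt2, the member with the highest ratio of KO to WT, also held 4 E-boxes, of which 2 were CAGCTG, so the same letters occur upstream of members of both classes. A match describes the letters and is not a measurement of binding.

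Across the 36 members, 34 had a lower mean in KO than in WT embryos and 2, Tnnt2 and Myom1, had a higher one. In 26 members all 3 KO values were under all 4 WT values, in none were all 3 KO values above them, and in 10 the genotypes overlapped. Of the 16095 genes whose mean over the embryos reached 1 FPKM, 5.98% had the KO values under all WT values in the same way and 5.61% had them above. Among the 32 members that reached this mean, 24 had the KO values under all WT values. The median log2 fold change on the log2(FPKM + 1) scale was -0.49 over the members and 0.01 over all genes tested, and the members ran from -1.39 (Mylpf) to 0.20 (Tnnt2). This scale understates the difference of genes near 1 FPKM, so KO means are also given as a percent of the WT mean. In a bulk sample of a whole embryo, fewer muscle cells and less RNA per muscle cell cannot be told apart.

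The classes differed in their values. KO means of the 22 skeletal members were 34.4% to 71.1% of the WT mean, with a median of 52.1%, and in 19 of them the genotypes did not overlap. KO means of the 12 heart-shared members were 69.8% to 115% of the WT mean, with a median of 87.7%, and 5 of them, Actc1, Tpm1, Tnnc1, Actn2 and Des, had all KO values under all WT values. Both broad members did so too, with KO means of 52.3% (Chrnb1) and 63.4% (Tpm2) of WT. The median log2 fold change was -0.63 for skeletal, -0.70 for broad and -0.18 for heart-shared members.

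Of the 36 members, 32 passed the minimum mean, and Chrnd, Cacna1s, Cacng1 and Ckm did not. By limma, 0 of the 32 had an adjusted p under 0.05, where 0.0373% of all genes tested (6 genes) did. An unadjusted p under 0.05 was reached by 24 members, all lower in KO embryos, beside 6.19% of all genes tested that were lower and 5.27% that were higher at this level. The choice of the members used this same contrast, so these counts describe them and are no evidence for them.

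**Figure D1:**
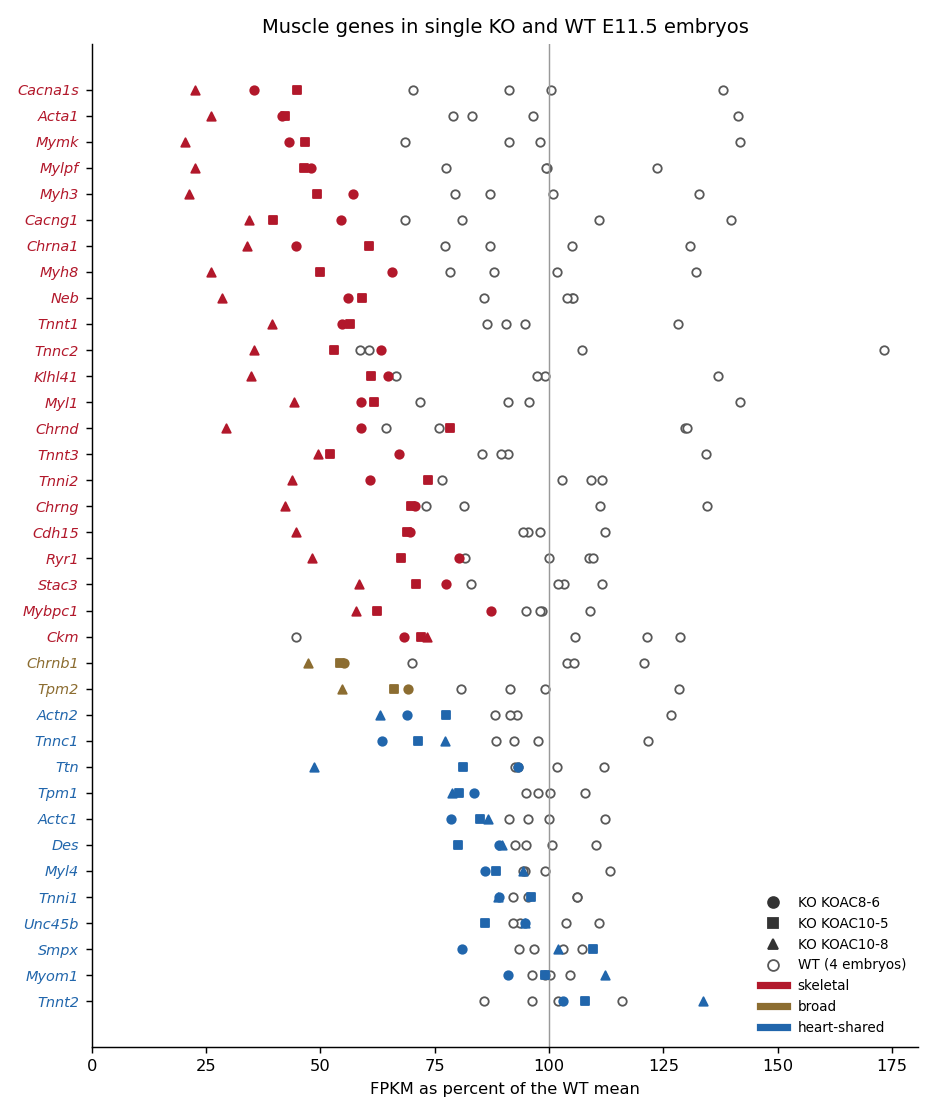
FPKM of the 36 muscle genes in each embryo as a percent of the gene's WT mean (horizontal axis), 1 row per gene, filled symbols for the 3 KO embryos and open circles for the 4 WT embryos, with row colours for the skeletal, broad and heart-shared classes. Most skeletal genes have all 3 KO symbols to the left of the open circles, with KO means of 34.4% to 71.1% of WT, and the lower blue rows overlap.

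In what follows, the 3 KO values are in the order KOAC8-6, KOAC10-5 and KOAC10-8, and the 4 WT values in the order KOAC8-1, KOAC10-7, KOAC9-1 and KOAC10-2. Errors of means are SD over 3 KO and 4 WT embryos, and errors of log2 fold changes are standard errors from the limma fit.

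The myosin heavy chains are the motors of the thick filament. Myh3, the embryonic skeletal heavy chain, stood at 13.6, 11.7 and 5.06 FPKM in KO embryos and at 24, 20.7, 31.6 and 18.9 FPKM in WT embryos. The highest KO embryo was below the lowest WT embryo, and KOAC10-8 was lowest of all. The means were 10.1 ± 4.47 and 23.8 ± 5.6 FPKM, a log2 fold change of -1.23 ± 0.32. Myh8, the perinatal heavy chain, was lower in level, at 2.19, 1.67 and 0.872 FPKM in KO embryos and 3.4, 2.94, 4.41 and 2.62 FPKM in WT embryos. Again the genotypes did not overlap, and the 7 embryos fell in the same order as for Myh3.

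Myosin light chains bind the neck of the heavy chain. Mylpf, the regulatory light chain of fast skeletal fibres, had the lowest log2 fold change of the members. It stood at 44.3, 42.8 and 20.8 FPKM in KO embryos and at 91.7, 91.5, 114 and 71.5 FPKM in WT embryos. The KO mean was 39% of the WT mean, with a wide gap between the genotypes and a log2 fold change of -1.39 ± 0.28. Myl1, the alkali light chain of fast fibres, stood at 29.6, 31 and 22.2 FPKM in KO embryos and 36.1, 48.1, 71.3 and 45.8 FPKM in WT embryos. Its KO mean was 54.8% of WT, with no overlap, and 11.7% of its 50-base stretches are shared with the pseudogene Mylf-ps. Myl4, the light chain of the atrium and of embryonic muscle, had means of 94 ± 4.61 (KO) and 105 ± 9.43 FPKM (WT), and its genotypes overlapped.

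Actins form the thin filament. Acta1, the skeletal alpha-actin, stood at 12.8, 13 and 8.04 FPKM in KO embryos and at 29.7, 24.3, 43.5 and 25.6 FPKM in WT embryos. Every KO embryo was far below the lowest WT embryo, and the log2 fold change was -1.36 ± 0.24. Actc1, the cardiac alpha-actin, which embryonic skeletal muscle also uses, stood at 136, 147 and 150 FPKM in KO embryos and at 165, 158, 194 and 173 FPKM in WT embryos. The genotypes did not overlap here either, but the KO mean was 83.6% of WT and the log2 fold change -0.25 ± 0.08. In this gene KOAC10-8 was the highest KO embryo and not the lowest.

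Tropomyosins lie along the thin filament and cover the myosin binding sites. Tpm1, which is also made in smooth muscle and non-muscle cells, had the highest level of all members, at 311, 299 and 293 FPKM in KO embryos and 401, 373, 353 and 363 FPKM in WT embryos. Its KO values were close together and all below the WT values, with a log2 fold change of -0.30 ± 0.06. Tpm2, beta-tropomyosin, had means of 56.8 ± 6.86 (KO) and 89.6 ± 18.5 FPKM (WT), again without overlap.

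Troponin T anchors the troponin complex to tropomyosin, and its genes divide by fibre type. Tnnt1, the slow skeletal gene, stood at 40.8, 42.1 and 29.4 FPKM in KO embryos and at 70.4, 67.4, 95.3 and 64.3 FPKM in WT embryos. Its KO mean was 50.3% of WT, the genotypes were well apart, and the log2 fold change was -0.97 ± 0.17. Tnnt3, the fast skeletal gene, was low, with means of 3.59 ± 0.604 (KO) and 6.38 ± 1.47 FPKM (WT), and did not overlap. Tnnt2, the cardiac gene, stood at 104, 109 and 135 FPKM in KO embryos and at 97.2, 86.7, 117 and 103 FPKM in WT embryos. Its genotypes overlapped, and the highest value of the 7 was that of KOAC10-8, the embryo with the lowest Tnnt1 and Tnnt3.

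Troponin I is the inhibitory subunit. Tnni1, the slow skeletal gene that the embryonic heart also uses, had means of 54.5 ± 2.51 (KO) and 59.7 ± 4.37 FPKM (WT), with overlap. Tnni2, the fast skeletal gene, stood at 2.88, 3.48 and 2.07 FPKM in KO embryos and at 4.86, 5.16, 5.28 and 3.62 FPKM in WT embryos. The highest KO value was just under the lowest WT value, that of KOAC10-2.

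Troponin C binds the calcium. Tnnc1, of slow muscle and heart, stood at 52.6, 59.3 and 64.2 FPKM in KO embryos and at 80.9, 73.3, 101 and 76.7 FPKM in WT embryos. The genotypes did not overlap, and the log2 fold change was -0.49 ± 0.12. Tnnc1 is the only member on the chromosome of Slmap, chromosome 14, and lies 4.67 Mb from it (GRCm38). Whether alleles linked to the targeted locus differed between the embryos was not tested.

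The values of Tnnc2, the fast skeletal troponin C, are uncertain. They were 16.7, 14 and 9.37 FPKM in KO embryos and 28.3, 16, 45.7 and 15.5 FPKM in WT embryos. The WT embryos KOAC10-7 and KOAC10-2 lay below the KO embryo KOAC8-6, so the genotypes overlapped. Of the 50-base stretches of Tnnc2, 47.9% are also found, in antisense, in Ube2c, a ubiquitin-conjugating enzyme of dividing cells with means of 132 (KO) and 125 FPKM (WT). The library kit does not mark the strand, so fragments from these stretches cannot be told apart by strand.

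**Figure D2:**
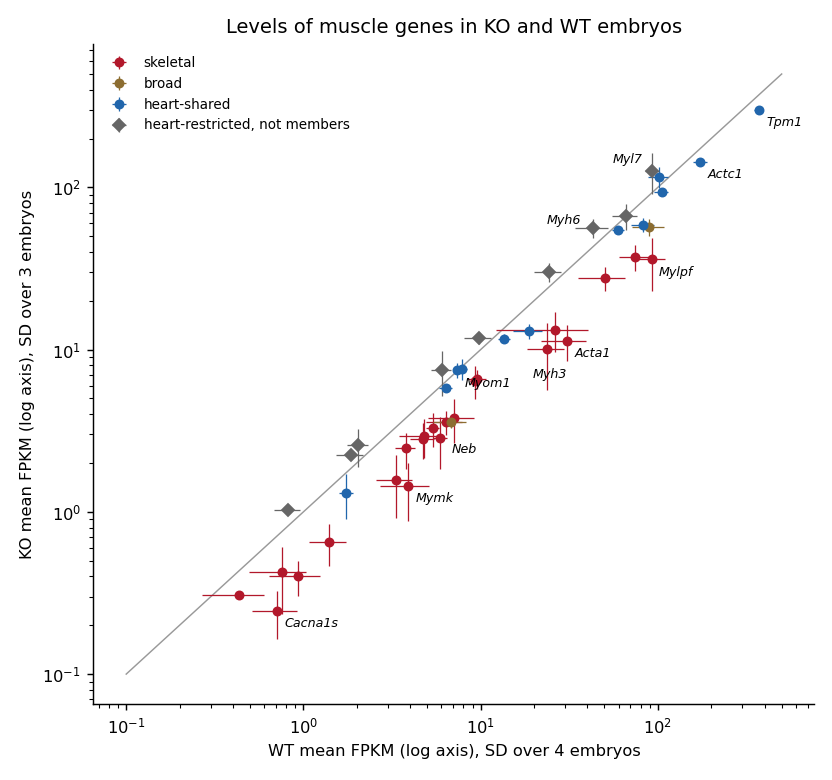
Mean FPKM in KO embryos (vertical, log axis) against mean FPKM in WT embryos (horizontal, log axis) for the 36 muscle genes in 3 colours and 9 heart-restricted genes as grey diamonds, with bars of 1 SD over 3 KO and 4 WT embryos and a line at equal levels. The 22 red skeletal genes lie below the line, from Ckm and Cacna1s under 1 FPKM to Mylpf at 36 against 92.2 FPKM, while the blue heart-shared genes lie nearer the line and the diamonds on or above it.

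The large structural proteins gave mixed values. Neb, nebulin, which lines the thin filament of skeletal muscle, stood at 3.32, 3.51 and 1.69 FPKM in KO embryos and at 6.23, 6.24, 6.16 and 5.08 FPKM in WT embryos. Its WT values were close together and its KO mean was 47.9% of theirs, with a log2 fold change of -0.88 ± 0.19. Ttn, titin, the spring between Z disc and M band, had means of 1.3 ± 0.401 (KO) and 1.75 ± 0.161 FPKM (WT) and overlapped. Its log2 fold change went from -0.27 to -0.12 when KOAC10-8 was left out. Actn2, the alpha-actinin of the Z disc, had means of 13 ± 1.38 and 18.7 ± 3.39 FPKM without overlap, with a log2 fold change of -0.48 ± 0.13.

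Mybpc1, the slow skeletal myosin-binding protein C, had a KO mean of 69.1% of WT and no overlap. Des, desmin, the muscle intermediate filament, had means of 11.7 ± 0.724 (KO) and 13.6 ± 1.07 FPKM (WT), a small difference without overlap. Myom1, myomesin of the M band, and Smpx, a small muscle protein of the X chromosome, were nearly equal in the genotypes, at 101% and 97.4% of WT. The sign of both turned under some alternative settings.

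The acetylcholine receptor of the muscle membrane receives the signal of the motor nerve, and its fetal form carries the gamma subunit in place of epsilon. Chrng, the gamma subunit, stood at 3.41, 3.37 and 2.04 FPKM in KO embryos and at 5.36, 3.92, 6.48 and 3.52 FPKM in WT embryos. The KO embryos came close to KOAC10-2, the lowest WT embryo, without reaching it. Chrna1, the alpha subunit, which takes part in binding acetylcholine, was at 0.626, 0.85 and 0.475 FPKM in KO embryos and at 1.22, 1.47, 1.83 and 1.08 FPKM in WT embryos, also without overlap. Chrnb1, the beta subunit, had means of 3.57 ± 0.297 and 6.83 ± 1.46 FPKM without overlap. Chrnd, the delta subunit, had means of 0.423 ± 0.188 and 0.762 ± 0.266 FPKM, and its genotypes overlapped. Within the summed FPKM of these 4 genes, the share of Chrng was 38.3 ± 3.69% in KO and 34.8 ± 3.34% in WT embryos, and that of Chrnd was 5.4 ± 1.62% and 5.44 ± 1.01%, so the make-up of the sum was close in the genotypes.

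In excitation-contraction coupling, the voltage sensor of the membrane opens the calcium release channel of the sarcoplasmic reticulum. Cacna1s, the pore subunit of the voltage sensor, stood at 0.253, 0.321 and 0.162 FPKM in KO embryos and at 0.652, 0.717, 0.986 and 0.501 FPKM in WT embryos. Of its 50-base stretches, 16.3% are shared in antisense with Gm37759, at means of 0.156 (KO) and 0.177 FPKM (WT). The KO mean of Cacna1s was 34.4% of WT, the lowest percent among the members, at a level under 1 FPKM. Its accessory subunit Cacng1 had means of 0.401 ± 0.098 and 0.937 ± 0.3 FPKM, also without overlap. Ryr1, the skeletal release channel, had means of 2.46 ± 0.61 and 3.77 ± 0.49 FPKM. Stac3, the adaptor of the voltage sensor, had means of 6.62 ± 0.922 and 9.6 ± 1.16 FPKM. In each of these 4 genes the KO values were all under the WT values.

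Mymk, myomaker, is a membrane protein needed for myoblast fusion. It stood at 1.69, 1.82 and 0.802 FPKM in KO embryos and at 3.83, 3.57, 5.54 and 2.68 FPKM in WT embryos. The genotypes were well apart and the KO mean was 36.9% of the WT mean. Cdh15, M-cadherin of the muscle cell contact, had means of 3.29 ± 0.772 (KO) and 5.38 ± 0.448 FPKM (WT) without overlap.

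Klhl41, a kelch protein that stabilises nebulin, stood at 4.61, 4.34 and 2.48 FPKM in KO embryos and at 7.05, 6.92, 9.74 and 4.73 FPKM in WT embryos. The highest KO embryo was just under KOAC10-2. Unc45b, a chaperone of myosin that heart also uses, was at 91.7% of WT with overlap. Ckm, muscle creatine kinase, which buffers ATP in mature fibres, was at 0.307 ± 0.0112 (KO) and 0.432 ± 0.165 FPKM (WT), and the lowest value of the 7 was that of a WT embryo, KOAC10-7.

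Within families that divide between skeletal muscle and heart, the mean share of the skeletal gene was lower in KO embryos. Tnnt1 made up 27.3% or less of the summed FPKM of Tnnt1, Tnnt2 and Tnnt3 in KO embryos and 37.2% or more in WT embryos. Its mean share was 24 ± 5.63% against 40.8 ± 2.6%, and that of Tnnt2 was 73.7 ± 6.02% against 55.7 ± 2.84%. Acta1 made up 7.27 ± 1.89% of the sum with Actc1 in KO and 14.9 ± 2.49% in WT embryos. Of 4 myosin heavy chains, Myh3 made up 7.35 ± 3.4% and 18.7 ± 5.53%, while Myh6 made up 40.7 ± 4.76% and 33.2 ± 4.46% and Myh7 50.8 ± 1.99% and 45.6 ± 2.76%. For troponin I, Tnni2 was at 3.23 ± 0.844% and 5.4 ± 1.17% and the cardiac Tnni3 at 34.3 ± 4.2% and 27.2 ± 2.74%. These shares repeat the levels given above within each embryo, so that scaling between embryos does not enter them.

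**Figure D3:**
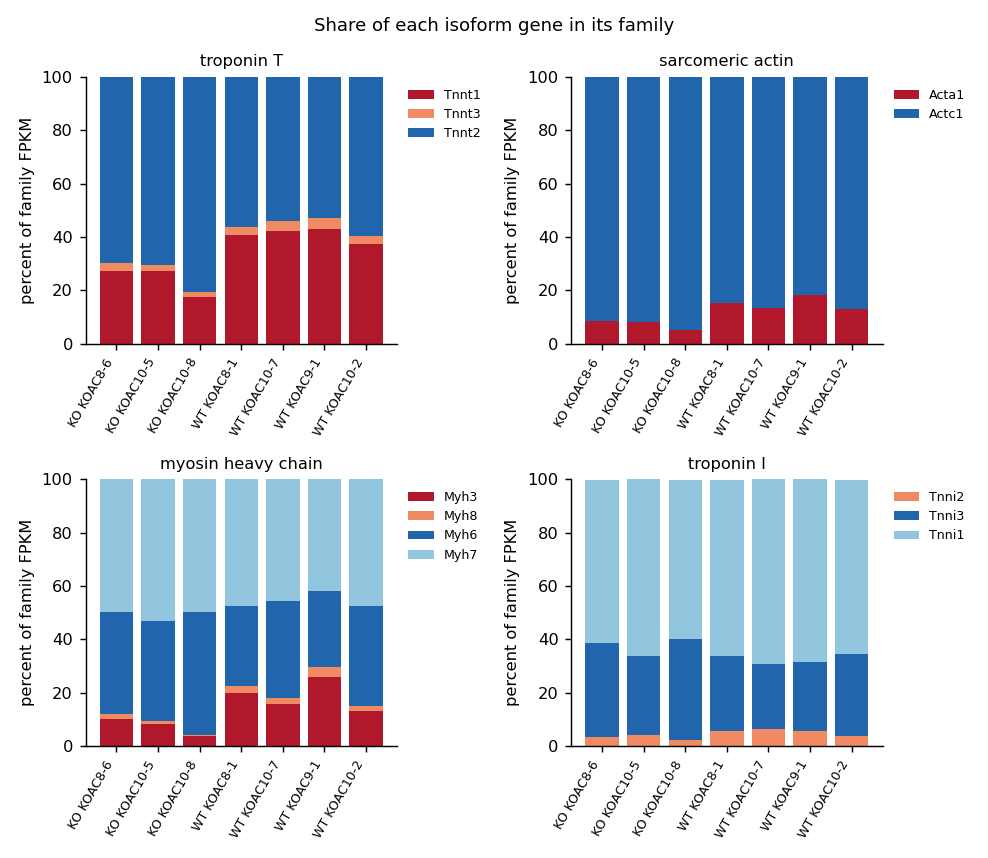
Share of each gene in the summed FPKM of its family (percent, vertical) in each of the 3 KO and 4 WT embryos for troponin T, sarcomeric actin, myosin heavy chain and troponin I, with skeletal genes in red tones and genes of the heart, or of heart and slow muscle, in blue tones. The red parts of troponin T, actin and myosin heavy chain are shorter in all 3 KO bars than in any WT bar, with Tnnt1 at 17.5% to 27.3% of troponin T against 37.2% to 43.1%, while that of troponin I overlaps, with Tnni2 at 2.34% to 4.02% and 3.75% to 6.5%.

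The embryos of one genotype also differed among themselves, and the skeletal members largely shared one order of embryos. KOAC10-8 was the lowest KO embryo in 21 of the 22 skeletal members. KOAC9-1 was the highest WT embryo in 20 of the 22, and KOAC10-2 the lowest WT embryo in 17. Heart-shared members did not keep this order in KO embryos, where KOAC10-8 was lowest in 4 of 12 and highest in 6. Among WT embryos, KOAC9-1 was highest in 9 of the 12 heart-shared members and KOAC10-2 lowest in 3. With genotype means removed, 21 of the 22 skeletal members correlated above 0.5 with the mean of the other skeletal members. Of the heart-shared members 2 of 12 did, and of all genes tested 15.9%. So did 5 of 7 smooth muscle and 4 of 4 tendon progenitor genes listed below, so the order was not particular to skeletal members. As a mean of log2(FPKM + 1) minus the WT mean, the skeletal members stood between -1.03 and -0.53 in KO embryos and between -0.23 and 0.31 in WT embryos. Their summed FPKM was 125 to 204 in KO and 298 to 484 in WT embryos, and that of the heart-shared members 793 to 842 and 900 to 996. Tpm1 alone gave 293 to 311 and 353 to 401 FPKM of the heart-shared sums.

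Embryo names carry a series (KOAC8, KOAC9 or KOAC10) that the labels do not explain. Within KOAC8, with 1 KO and 1 WT embryo, 34 of the 36 members were lower in the KO embryo, with a median log2 difference of -0.41. Within KOAC10, with 2 and 2 embryos, 33 of the 36 were lower, with a median of -0.45. Every one of the 22 skeletal members was lower in KO in both series, where 50.1% and 45.8% of all genes tested were lower. KOAC9 held a single WT embryo and gives no such value.

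The whole series has these limits for the values above. The sum of FPKM per embryo ran from 770063 to 861448, and the relative depth, read from the steps between low FPKM values, from 0.81 to 1.21 of the average. It was 1.21 in KOAC9-1, 0.89 in KOAC8-1, 0.82 in KOAC10-7 and 0.81 in KOAC10-2, the WT order of the mean of the skeletal members. In KO embryos it was 1.13 (KOAC8-6), 1.08 (KOAC10-8) and 1.06 (KOAC10-5), which is not their order. The part of depth in these values was not tested. Slmap was at 17.4 ± 1.92 (KO) and 26.7 ± 4.04 FPKM (WT), with every KO embryo lower (log2 fold change -0.59, limma adjusted p = 0.278). Its gene-level value includes the shorter isoforms. In KOAC10-5 (KO), KOAC10-7 and KOAC10-2 (both WT), liver transcripts were nearly missing. Afp, the main plasma protein of the fetal liver, was at 1.3 to 5.18 FPKM in them and at 255 to 376 FPKM in the other 4, and Alb, albumin, at 0.313 to 1.63 and 65.2 to 180 FPKM.

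In the 4 embryos with liver transcripts (2 KO and 2 WT), 34 of the 36 members had the lower mean in KO, where 47.5% of all genes tested did. In 31 of the 36, among them the 22 skeletal members, both KO values were under both WT values, and 22.2% of all genes tested separated in this way. The median log2 difference was -0.66 over the members and 0.01 over all genes tested. In the 3 liver-poor embryos (1 KO and 2 WT), 33 of the 36 members were lower in KOAC10-5 than the mean of the WT embryos, where 50.9% of all genes tested were. KOAC10-5 was under both WT embryos in 30 of the 36, and in 34.9% of all genes tested. The median was -0.31 over the members and -0.00 over all genes tested. The members were chosen from the difference in these same 7 embryos, so these values are not independent of the choice, and the part of the liver in the values of the members was not tested.

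Regulators of muscle formation were read next, and their action on the members was not tested. By limma, 0 of the 12 tested of 13 myogenic regulators had an adjusted p under 0.05 (smallest 0.286). At an unadjusted p under 0.05, 3 were lower and 1 higher in KO embryos, beside 6.19% and 5.27% of all genes tested. Myog, which starts terminal differentiation, stood at 17, 18.3 and 8.24 FPKM in KO embryos and at 27.6, 29.9, 33.8 and 24.2 FPKM in WT embryos. Its genotypes did not overlap, the KO mean was 50.3% of WT, and the log2 fold change was -1.01 (limma adjusted p = 0.293). Myod1, which commits cells to the muscle fate, stood at 6.69, 7.46 and 3.54 FPKM in KO embryos and at 9.58, 11, 12.5 and 8.52 FPKM in WT embryos, again without overlap (limma adjusted p = 0.345).

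In both factors KOAC10-8 was lowest and KOAC9-1 highest, as in the skeletal members. Mef2c, a partner of the myogenic factors that heart also uses, was the other regulator whose KO values were all under its WT values, with means of 8.96 ± 1.46 and 12.9 ± 2.29 FPKM. It was picked out after its values were seen. In Myf5, Pax7 and Pax3 the KO values were not all under the WT values. The lowest embryo for Myf5 was again KOAC10-8 and the highest KOAC9-1. Myf5 had means of 1.53 ± 0.312 and 1.82 ± 0.314 FPKM and Pax7 of 4.86 ± 0.304 and 4.64 ± 0.343 FPKM, both overlapping. Pax3, which is also expressed in the dorsal neural tube, was at 14.1 ± 1.43 (KO) and 11 ± 0.617 FPKM (WT), with every KO embryo higher (limma adjusted p = 0.286). The median log2 fold change of the 13 was -0.01.

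Further genes of contraction and differentiation that are not members give a wider view. Of 58 listed, 56 were in the table and 41 were tested. The KO values were all under the WT values in 22 of the 56, and all above in 1, Lmod2, a leiomodin of striated muscle. Among the 41 tested the counts were 13 and 1, beside 5.98% and 5.61% of all genes tested. The median log2 fold change of the 56 was -0.18, and 45 had the lower mean in KO embryos. By limma, 0 of the 41 had an adjusted p under 0.05 (smallest 0.274). At an unadjusted p under 0.05, 15 were lower and 1 higher, beside 6.19% and 5.27% of all genes tested.

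The 5 of them with the largest absolute log2 fold change were all lower in KO embryos. Mybph, a myosin-binding protein of the thick filament, had means of 3.21 ± 1.31 and 8.96 ± 3.24 FPKM (log2 fold change -1.25, limma adjusted p = 0.286). Casq2, the calcium buffer of cardiac and slow sarcoplasmic reticulum, had means of 2.62 ± 1.12 and 6.63 ± 2.71 FPKM (-1.07, limma adjusted p = 0.317). Mymx, myomixer, the partner of myomaker in fusion, had means of 3.01 ± 1.14 and 6.51 ± 1.21 FPKM (-0.93, limma adjusted p = 0.285). Thus both fusion proteins of the myoblast had lower values in every KO embryo. Lmod3, a leiomodin that nucleates thin filaments, and Atp2a1, the calcium pump of fast fibres, each had a log2 fold change of -0.76 (limma adjusted p = 0.278 and 0.286).

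At the other end, Trdn, Jph1 and Hspb3 had the smallest absolute log2 fold changes, at 0.01, -0.01 and -0.00. Trdn, triadin, and Jph1, junctophilin, belong to the junction between the membrane and the calcium store, and Hspb3 is a small heat shock protein. Their levels were low, with WT means of 2.11, 1.28 and 1.46 FPKM. The programme thus included genes whose means were nearly equal in the genotypes.

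Markers of other tissues were read beside the members. Of 9 heart-restricted genes, 9 had the higher mean in KO embryos and 2, Ryr2 and Bmp10, had KO values above all WT values. Among the 8 tested this held for 1, beside 5.61% of all genes tested. The summed FPKM of the 9 was 263 to 357 in KO and 225 to 288 in WT embryos, and none of the 9 was at 0. The atrial light chain Myl7 had means of 127 ± 35.9 and 92.8 ± 8.63 FPKM, the alpha heavy chain Myh6 of 56.5 ± 7.45 and 43.2 ± 8.99 FPKM, and the cardiac troponin Tnni3 of 30 ± 4.02 and 24.3 ± 4.22 FPKM. The KO mean of the natriuretic peptide gene Nppa was 102% of the WT mean. The median log2 fold change of the 9 was 0.25. By limma, 0 of the 8 tested had an adjusted p under 0.05 (smallest 0.428). At an unadjusted p under 0.05 there were 2, both higher in KO embryos, beside 5.27% of all genes tested that were higher. These means differed in the direction opposite to those of the skeletal members, and the part of the heart in the heart-shared values was not tested.

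Myh7, Myl2 and Myl3, of the ventricle and slow muscle, had overlapping genotypes and a median log2 fold change of 0.26. Of 7 smooth muscle genes, 4 had KO values under all WT values, with sums of 80 to 102 and 121 to 151 FPKM. Of 4 tendon progenitor genes, 3 did, with sums of 27.9 to 34 and 36.7 to 50.4 FPKM. Of 7 neural progenitor genes, 3 had KO values above all WT values, with sums of 661 to 740 and 598 to 683 FPKM. These sums overlapped, as did those of 7 neuron genes, at 605 to 713 and 608 to 758 FPKM. Among the 6 smooth muscle genes tested, 3 had KO values under all WT values. Of all genes tested, 5.98% had KO values under all WT values and 5.61% above them. No gene of these lists was at 0 in a group mean. By limma, 0 genes of these 5 lists had an adjusted p under 0.05. At an unadjusted p under 0.05, 3 smooth muscle and 3 tendon genes were lower in KO embryos, 6 neural progenitor genes and 2 of the ventricle and slow muscle (Myh7 and Myl3) were higher, and 0 neuron genes were either. At this level 6.19% of all genes tested were lower and 5.27% higher. The part of these tissues in the values of the members was not tested.

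**Figure D4:**
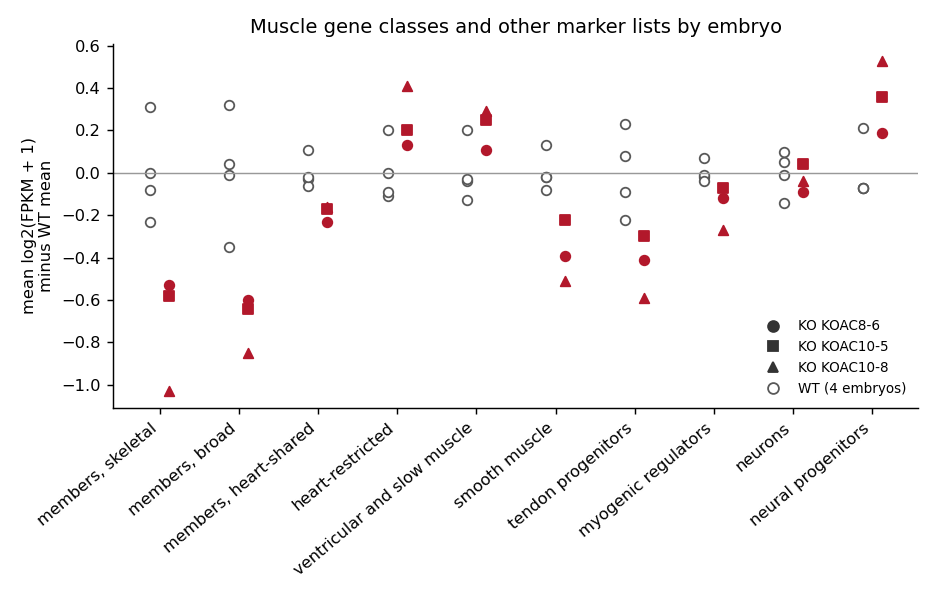
Mean log2(FPKM + 1) of each gene list in each embryo minus its WT mean (vertical axis), with filled symbols for the 3 KO embryos and open circles for the 4 WT embryos. The skeletal members lie at -1.03 to -0.53 in KO and -0.23 to 0.31 in WT embryos, heart-shared members at -0.23 to -0.16 and -0.06 to 0.11, and heart-restricted genes at 0.13 to 0.41 and -0.11 to 0.20.

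The members lie on 12 chromosomes, and several are neighbours in pairs of a troponin T with a troponin I gene. Tnnt1 lies 1.92 kb from Tnni3 on chromosome 7, and these neighbours differed in direction, with KO means of 50.3% and 124% of WT. Tnnt2 lies 25.4 kb from Tnni1 on chromosome 1, at 115% and 91.2%. Tnnt3 lies 54.4 kb from Tnni2 on chromosome 7, and both fast skeletal genes were lower in every KO embryo, at 56.3% and 59.4%. Chrnd and Chrng lie 4.59 kb apart on chromosome 1, at 55.5% and 61% of WT.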

How the data were processed

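Total RNA of 7 single E11.5 embryos was made into libraries with the TruSeq RNA v2 kit. The authors deposited 1 FPKM value per gene and embryo; the submitters' processing notes name Salmon, DESeq2, MultiQC and GRCm38, without versions. Their own comparison columns (a mean signal, fold change and p-values) were not used. Genotypes came from the labels, and 0 FPKM columns were left unmapped. Reads per gene were not recovered, so no counting intervals are given.

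Values were analysed as log2(FPKM + 1). The 16095 genes whose mean reached 1 FPKM were fitted for KO against WT with limma 3.58.1 in R 4.3.3 (lmFit, eBayes with a trend), without a covariate, two-sided, with Benjamini-Hochberg adjustment at 0.05. The fit was tested on simulated data. The members and gene lists were chosen with earlier results of these data known. Named besides the 36 members and Slmap were, of the other contractile genes, the 5 with the largest and 3 with the smallest absolute log2 fold change, and fixed regulator, heart and liver genes; Mef2c, Lmod2, Ryr2 and Bmp10 were named after their values were seen. Positions and shared 50-base stretches came from GENCODE for GRCm38, and upstream sequences from RefSeq (GRCm38.p6).

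Alternatives were 2 pseudocounts, 2 filters, 3 scalings, the label series as a block, robust and weighted fits, leaving out each embryo, leaving out 3 liver-poor embryos, KOAC10 alone and, chosen after seeing the data, the liver-poor embryos alone.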

Additional observations from a re-analysis of the deposited data

Results flagged for a closer look

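Among the 4 WT embryos, a single embryo stood apart from the other 3 in 7 of 100 genes examined, where chance gives about 5 (Dixon's ratio of the gap to the whole range, 95% critical value). KOAC9-1 was the high embryo for 2 members, Tnnt3 (ratio 0.886) and Actn2 (0.863), and for the further contractile genes Myoz2 (0.947) and Casq2 (0.874). KOAC10-2 was the low embryo for Neb (0.928) and the high embryo for the regulators Pax7 (0.928) and Myf6 (0.881). In every one of the 5 contractile genes named here, KO embryos lay below all 4 WT embryos.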

How the results depend on the processing

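Over 20 alternatives the number of members whose KO values were all under the WT values was 26 to 31. This count is no test of most settings. Pseudocounts, filters and other fits keep the order of a gene's values. Leaving out embryos can only keep or raise the count (more of all genes separate when fewer embryos are compared). At most the scalings could lower it. Of 720 member log2 fold changes, 683 moved by under 1 SD. These include the values under the filters and the robust fit, which cannot change them. The median of the members was -0.70 and -0.72 with pseudocounts of 0.1 and 0.01, where that of the skeletal members was -0.89 with 0.01, since a smaller pseudocount shrinks low genes less. Leaving out 1 embryo gave -0.57 to -0.41, and the 3 liver-poor embryos alone, an alternative chosen after seeing the data, gave -0.31. Only Myom1, Smpx and Chrnd turned sign under an alternative. Of all genes, 6 were called, and 7 to 12 with 1 embryo left out, the 12 without KOAC8-1. Without the 3 liver-poor embryos there were 17 and within KOAC10 there were 13, and the cause was not tested. At an unadjusted p under 0.05 there were 997 genes lower and 849 higher, but 786 in all within KOAC10 and 2630 without KOAC10-5. None of the other contractile genes, regulators or heart-restricted genes was called under an alternative run for them. The label series as a block gave a median of -0.44 and 7 genes called. The replicate numbers only follow the order of the samples and pair none of them. Depth in reads is unknown, which limits members under 1 FPKM most.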
